A study of Mus musculus with 2 samples.

Results

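Rgs5 cells were taken from Xenium In Situ sections of mouse lungs with small cell lung cancer (SCLC), in which single transcripts of a probe panel are imaged in tissue and assigned to segmented cells. A cell was a member when it held at least 20 gene transcripts, at least 2 transcripts of *Rgs5*, at most 1 transcript in all of the neuroendocrine genes *Chga*, *Chgb*, *Scg5*, *Snap25* and *Celf3*, and at most 4 in all of the endothelial genes *Pecam1*, *Sox17*, *Gpihbp1*, *Clec14a* and *Calcrl*. This rule found 3234 of 493524 cells with enough transcripts, 668 of 152915 in the RPR2 section and 2566 of 340609 in the CRPR2 section. The members were thus chosen by the measured transcripts of these 11 genes, whose values are given as description only.

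Both sections came from C57BL/6 mice with floxed alleles of the tumor suppressor genes *Rb1*, *Trp53* and *Rbl2* (Rb1lox/lox Trp53lox/lox Rbl2lox/lox), which were infected at 10 weeks of age with adenoviral Cre instilled into the trachea. The virus reaches only part of the lung's cells, so the 3 floxed genes are lost in infected cells and their descendants, whereas the *Cracd* knockout (KO) that sets CRPR2 apart is carried in the germline and thus in every cell of the mouse. There was 1 section of each genotype, both from 1 paraffin block, and so no difference between the genotypes could be tested: intervals are exact 95% intervals that cover counting error of transcripts or cells, not the spread between mice. The section of each genotype held 154818 (RPR2) and 342845 (CRPR2) segmented cells, and 8 cell barcodes occurred in both sections, none of them of an Rgs5 cell.

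Mural cells wrap the endothelial tubes of blood vessels. They range from pericytes, which share a basement membrane with capillary endothelium and carry few contractile fibers, to vascular smooth muscle cells, which surround arteries with actin and myosin bundles and set vessel tone. *Rgs5* encodes a regulator that speeds the hydrolysis of GTP on heterotrimeric G proteins and is a widely used pericyte marker, and *Mgll* encodes monoacylglycerol lipase, which releases glycerol and fatty acid from monoglycerides and is also abundant in fat cells. Smooth muscle is found in the lung around airways as well as around vessels, and cardiac muscle sleeves surround the pulmonary veins of mice.

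The median Rgs5 cell held 103 transcripts in RPR2 (quartiles 74 and 140.25) and 103 in CRPR2 (quartiles 72 and 144.75), against 101 and 101 in the whole sections. Summed over cells, the RPR2 members gave 75556 transcripts, so that 1 transcript is 13.2 CPM (counts scaled to a total of 1000000), and the CRPR2 members gave 290137, where 1 transcript is 3.45 CPM. All levels below are CPM, the transcripts of a gene as a share of all gene transcripts of a population, and levels of different genes were not ranked, since probes differ in number and efficiency. Negative control codewords were read 11 times in RPR2 members and 26 times in CRPR2 members, or a mean of 3.55 and 2.19 CPM per codeword. The highest single codeword stood at 39.7 and 41.4 CPM.

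Rgs5 cells made up a larger share of the CRPR2 section. In RPR2 they were 0.437% of cells (0.404 to 0.471), while CRPR2 held 0.753% (0.725 to 0.783), which makes the log2 ratio 0.79 (0.66 to 0.91). Among cells that passed the neuroendocrine limit, the shares were 0.489% and 1.87%, with a log2 ratio of 1.93. For 100 cells of an endothelial gate (5 or more transcripts of the 5 endothelial genes, at most 1 neuroendocrine and at most 1 *Rgs5* transcript) there were 1.21 Rgs5 cells in RPR2 and 8.24 in CRPR2. Those denominators differed between the sections as well: 36.0% of cells lay in the endothelial gate in RPR2 and 9.14% in CRPR2, and cells with 3 or more neuroendocrine transcripts, called tumor cells here, held 9.87% and 53.5%.

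Pairs of *Rgs5* transcripts were also found in cells that should not express the gene. Of T cells (2 or more transcripts of *Cd3d*, *Cd3e* and *Cd8a*), 0.311% had at least 2 *Rgs5* transcripts in RPR2 and 1.78% in CRPR2, at median depths of 79 and 86 transcripts. Of tumor cells, 0.192% and 0.676% did, and of ciliated airway cells (3 or more transcripts of *Foxj1*, *Ccdc153* and *Tmem212*) 0.173% and 0.138%. Among cells with 5 or more endothelial transcripts and at most 1 neuroendocrine transcript, the shares were 0.773% and 4.97%. Before the other limits of the rule, 0.742% of all RPR2 cells and 1.69% of all CRPR2 cells had at least 2 *Rgs5* transcripts. The T cells (1.38 to 2.26% in CRPR2) and the ciliated cells were taken within the neuroendocrine and endothelial limits. Their shares are therefore not directly comparable with those of all cells. How much of the larger share of Rgs5 cells in CRPR2 came from *Rgs5* transcripts assigned to neighboring cells was not tested.

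*Rgs5* counts themselves were low in most members. The median was 2 transcripts in RPR2 and 3 in CRPR2, and the highest count was 22 and 27. Cells just inside the limit, with 2 transcripts, were 371 of 668 members in RPR2 (55.5%) and 1139 of 2566 in CRPR2 (44.4%), while 1557 and 3949 cells with 1 transcript lay just outside it. Cells with 10 or more transcripts were 17 and 111. The endothelial limit alone kept out 429 cells with 2 or more *Rgs5* transcripts in RPR2 and 1628 in CRPR2, and the neuroendocrine limit 38 and 1546.

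The first question was which genes the Rgs5 cells carry beside *Rgs5*. Of 363 genes with at least 100 CPM in some population and outside the 11 genes of the rule, 63 were at least 2-fold higher in Rgs5 cells than in all other cells of both sections (17.4%), and 88 were at least 2-fold lower in both (24.2%), with 10 CPM added to both levels. These counts were 45 and 70 when cells with a neuroendocrine sum of 2 or more were left out of the other cells. The results below keep them in. Of 9 measured genes on a list of smooth muscle genes, 8 were higher, with a median log2 ratio of 2.32 in RPR2 and 2.54 in CRPR2 against −0.44 and 0.10 over all genes counted. Of the pericyte list, 4 of 23 genes were measured, and 2 of the 3 outside the rule (*Higd1b* and *Ndufa4l2*) were higher. None of 9 endothelial genes outside the rule and none of 7 T cell genes were higher in both sections, but the sections differed. The median log2 ratio of the endothelial genes was −1.05 in RPR2 and 0.61 in CRPR2, and that of the T cell genes −0.57 and 1.02. All 7 neuroendocrine genes outside the rule were lower. The rule leaves out cells rich in neuroendocrine or endothelial transcripts, and the other cells keep them. The counts of these 2 lists follow in part from that and are given as description only. Of 12 fibroblast genes, 7 were higher, with medians of 1.23 and 2.12.

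The contractile genes were at high levels in Rgs5 cells of RPR2 and at less in CRPR2. *Acta2*, smooth muscle actin, stood at 44166 CPM (42680 to 45690) in RPR2 members and 24333 CPM (23769 to 24908) in CRPR2 members, against 11282 and 7770 CPM in the other cells. *Myh11*, the smooth muscle myosin heavy chain, stood at 22738 and 6300 CPM, against 3414 and 979 CPM in the other cells. *Tagln*, an actin-binding protein of smooth muscle, stood at 29925 and 10774 CPM, against 4149 and 1751 CPM. For these 3 genes, the members lay above the other cells of their own section in each genotype, by 3.91, 6.64 and 7.20-fold in RPR2 and by 3.13, 6.38 and 6.12-fold in CRPR2. *Des*, the muscle intermediate filament desmin, and *Myl9*, the regulatory myosin light chain, behaved likewise, at 24088 and 8737 CPM and at 19271 and 7507 CPM in members of RPR2 and CRPR2. *Aspn*, a small leucine-rich proteoglycan, was 10.2-fold and 11.7-fold above the other cells, at 9847 and 6800 CPM.

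The sequences before the start sites of contractile genes are shown because these genes were higher together in Rgs5 cells and lower together in CRPR2. RefSeq promoters (build GRCm38.p6, 250 bases before to 50 after the start site) were found for 7 of 11 genes looked up, among them 5 of the 7 contractile genes. The full consensus CArG box, the element bound by serum response factor, was found in *Myl9*, at position −161 from the start site, and in 1.63% of all 32851 promoters of this length. Elements that depart from the consensus, such as those for which *Acta2* is known, were not searched for. The letters CATTCC or their reverse complement, the core of the element bound by TEAD factors, were found in *Acta2* at −146 and in *Mylk* at −158, and in 14.7% of all promoters. The letters TATAAA (the TATA box) and GTGGGAA (the element of the NOTCH factor RBPJ), which 13.6% and 6.38% of all promoters held, had no match in the 7 genes. Both strands were searched, no window held more than 1 match, positions are those of the first base of the match, and capitals mark the matches. *Rgs5*, *Cnn1*, *Des* and *Mgll* had no match of these 4 motifs, as spelled here, in this window. The promoters of *Myl9* (chr2:156775214-156775513, plus strand), *Acta2* (chr19:34255324-34255623, minus strand) and *Rgs5* (chr1:169655251-169655550, plus strand) read as follows.
Myl9: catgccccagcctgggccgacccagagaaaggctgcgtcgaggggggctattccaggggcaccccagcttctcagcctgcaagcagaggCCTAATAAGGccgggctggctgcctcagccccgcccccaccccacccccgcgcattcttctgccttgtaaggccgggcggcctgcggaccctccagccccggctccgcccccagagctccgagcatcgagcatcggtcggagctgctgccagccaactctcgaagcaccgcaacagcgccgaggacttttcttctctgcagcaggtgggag
Acta2: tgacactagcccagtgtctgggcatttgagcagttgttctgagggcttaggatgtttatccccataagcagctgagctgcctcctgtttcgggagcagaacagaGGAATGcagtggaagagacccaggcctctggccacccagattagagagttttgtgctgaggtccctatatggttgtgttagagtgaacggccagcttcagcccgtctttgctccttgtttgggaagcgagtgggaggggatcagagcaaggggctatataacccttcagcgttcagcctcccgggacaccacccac
Rgs5: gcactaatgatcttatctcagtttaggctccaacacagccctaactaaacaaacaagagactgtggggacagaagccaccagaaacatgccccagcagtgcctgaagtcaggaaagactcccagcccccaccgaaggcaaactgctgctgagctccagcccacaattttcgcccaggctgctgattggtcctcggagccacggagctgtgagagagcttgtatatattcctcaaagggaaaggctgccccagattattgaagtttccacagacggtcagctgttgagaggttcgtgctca

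*Higd1b* and *Ndufa4l2* have both been used as markers of lung pericytes. *Higd1b*, a mitochondrial protein of a hypoxia-inducible family, stood at 2303 CPM (1973 to 2672) in RPR2 members and 2733 CPM (2546 to 2930) in CRPR2 members, against 645 and 185 CPM in the other cells and 856 and 611 CPM in the endothelial gate. *Ndufa4l2*, a hypoxia-inducible relative of a respiratory chain subunit, stood at 5824 and 5422 CPM, against 2485 and 1763 CPM. *Angpt2*, the ligand that loosens contact between pericytes and endothelium, was 3.14-fold and 7.98-fold above the other cells, at 2356 and 2947 CPM. *Hey2*, a NOTCH target of arterial vessels, was at 1456 and 1465 CPM, 4.01-fold and 8.05-fold above the other cells, whereas *Hes1* (1522 and 2171 CPM) and *Hey1* (715 and 1496 CPM), the other NOTCH targets measured, were not past 2-fold in both sections. Of 5 YAP and TGF-β targets, *Ccn2* alone was past 2-fold in both sections, a share near the 17.4% of all 363 genes counted. *Ccn2* stood at 12269 and 9878 CPM (3.66-fold and 5.17-fold). *Ccn1* (1.83-fold and 3.03-fold), *Thbs1* (2.39-fold and 1.05-fold) and *Smad7* (0.60-fold and 1.18-fold) were among the targets not past 2-fold in both.

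**Figure D1:**
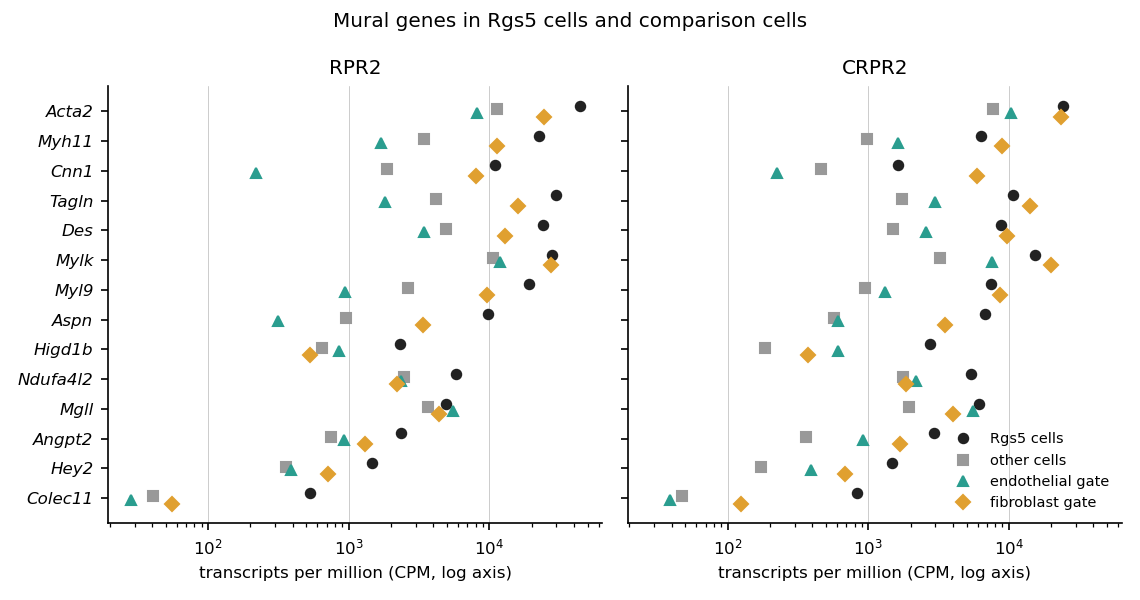
Level of 14 genes in CPM (log axis) in Rgs5 cells (black circles), all other cells (gray squares), an endothelial gate (green triangles) and a fibroblast gate (orange diamonds) of the RPR2 section (left) and the CRPR2 section (right). *Higd1b* in Rgs5 cells (2303 and 2733 CPM) lay above the 3 other populations in both sections, *Mgll* (4910 and 6149 CPM) lay close to the endothelial gate, and *Myh11* lay above the fibroblast gate in RPR2 (22738 and 11275 CPM) and below it in CRPR2 (6300 and 8986 CPM).

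*Mgll*, the second marker given for these cells, lay close to its level in endothelium. Its level was 4910 CPM (4423 to 5436) in RPR2 members and 6149 CPM (5867 to 6441) in CRPR2 members, against 5515 and 5592 CPM in the endothelial gate, or 0.89-fold and 1.10-fold. Over all other cells the fold was 1.33 in RPR2 and 3.16 in CRPR2. In CRPR2 this fold moved with the endothelial limit, from a log2 ratio of 1.66 to 1.06 with an endothelial sum of 0 and to 2.29 without a limit. When each cell was thinned to 50 transcripts, which left out 33 and 243 shallower members, the expected share of members with *Mgll* was 20.6% and 22.4%, the share of endothelial gate cells was 22.0% and 22.1%, and the share of T cells was 12.8% and 13.4%. Unthinned, 36.5% and 35.2% of members held *Mgll*.

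The members were next compared with other stromal cells. Of the 63 higher genes, 55 were also at least 2-fold above the endothelial gate in both sections, but 26 were above a fibroblast gate (2 or more transcripts of *Itga8* and *Gli1*) and 24 were above both. The 7 contractile genes *Acta2*, *Myh11*, *Cnn1*, *Tagln*, *Des*, *Myl9* and *Mylk* were not among these 24, whereas *Higd1b*, *Ndufa4l2*, *Hey2* and *Colec11* were. *Itga8*, a gene of the fibroblast gate, is also on the smooth muscle list. *Colec11*, a soluble collectin of innate immunity, stood at 529 CPM (378 to 721) in RPR2 members and 827 CPM (726 to 939) in CRPR2 members, against 55.5 and 125 CPM in the fibroblast gate and 28.1 and 38.8 CPM in the endothelial gate.

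Of the other genes above both gates, 11 are genes of heart muscle and fat cells. They were put into lists after their values had been seen, and their counts follow from that choice. The first list held heart muscle genes (*Myoz2*, *Mylk3*, *Pln*, *Tnnc1*, *Trdn*, *Ttn* and *Hrc*), which encode proteins of the sarcomere and of calcium release in striated muscle, and summed to 24829 CPM in RPR2 members and 15513 CPM in CRPR2 members, against 4884 and 2134 CPM in the other cells. The second held fat cell genes (*Car3*, *Retn*, *Pck1* and *Aqp7*), and summed to 5426 and 18805 CPM, against 535 and 1077 CPM. *Car3*, a carbonic anhydrase of fat and muscle, stood at 3957 and 13711 CPM, and *Retn*, the hormone resistin of fat cells, at 384 and 3130 CPM. Of 9 macrophage genes counted against the other cells, 2 were higher, 2 lower and 5 neither, near the shares of all 363 genes (17.4% and 24.2%). Their median log2 ratio was −0.27 in RPR2 and 0.88 in CRPR2. *Folr2* and *F13a1*, of tissue-resident macrophages, were at 582 and 665 CPM and at 2184 and 2358 CPM, against 232 and 163 CPM and 855 and 504 CPM in the other cells, whereas *Marco*, a scavenger receptor of alveolar macrophages, was among the lower ones, at 13.2 and 6.89 CPM against 186 and 65.9 CPM.

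The heart muscle and fat cell genes were concentrated in a minority of the members. At least 5 heart muscle transcripts were found in 77 RPR2 members (11.5%, 9.20 to 14.2) and 204 CRPR2 members (7.95%, 6.93 to 9.06). At least 3 fat cell transcripts were found in 22 RPR2 members (3.29%, 2.08 to 4.94) and 223 CRPR2 members (8.69%, 7.63 to 9.85). Both were found together at these limits in 1 RPR2 member and 14 CRPR2 members. In CRPR2 members with fat cell transcripts, *Car3* stood at 129342 CPM and *Mgll* at 21322 CPM, against a *Mgll* level of 4015 CPM in the CRPR2 members with neither fat nor heart muscle transcripts at these limits. In RPR2, *Mgll* stood at 13181 CPM in members with fat cell transcripts and at 4760 CPM in those with neither.

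The label of mural cells was thus borne out in part. Of the lists, 8 of 9 smooth muscle genes (among them *Pln*, which is also on the heart muscle list) and 2 of 3 pericyte genes were above the other cells in both sections, but so were 7 of 12 fibroblast genes. At least 2-fold above both the endothelial and the fibroblast gate were 1 smooth muscle gene, *Pln*, 0 of the 7 contractile genes and both *Higd1b* and *Ndufa4l2*. The fibroblast gate was itself set in part by *Itga8*, which is on both the smooth muscle and the fibroblast list. Its contractile sum was 109874 CPM in RPR2 and 90785 CPM in CRPR2, against 38967 and 16647 CPM in the other cells. *Mgll* lay close to its level in the endothelial gate, and fat cell and heart muscle genes were concentrated in some members of both, so the cells are called by their rule. *Pdgfrb*, *Cspg4* and *Notch3*, which are widely used to define pericytes, were not among the genes measured. Without members that held any fat cell or heart muscle transcript, the contractile log2 ratio of CRPR2 over RPR2 was −1.24 and that of *Higd1b* and *Ndufa4l2* 0.14.

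Members were also divided by whether they held *Mgll*. Of 306 genes counted, 6 were at least 2-fold higher in members with *Mgll* than in members without it in both sections (1.96%), and 11 were at least 2-fold lower (3.59%). The higher genes were *Pck1*, *Retn*, *Car3*, *Aqp7*, *Rbp7* and *Cnn1*. *Car3* stood at 8320 CPM in the 244 RPR2 members with *Mgll* and 860 CPM in the 424 without, and at 31717 CPM in the 903 CRPR2 members with *Mgll* and 1970 CPM in the 1663 without. *Rbp7*, a retinol-binding protein of fat and its endothelium, stood at 287 and 90.5 CPM in RPR2 and at 541 and 165 CPM in CRPR2. Members with *Mgll* were deeper, at a median of 113 against 98 transcripts in RPR2 and 116 against 96 in CRPR2. Neither *Higd1b* nor *Ndufa4l2* was among the genes higher with *Mgll*.

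**Figure D2:**
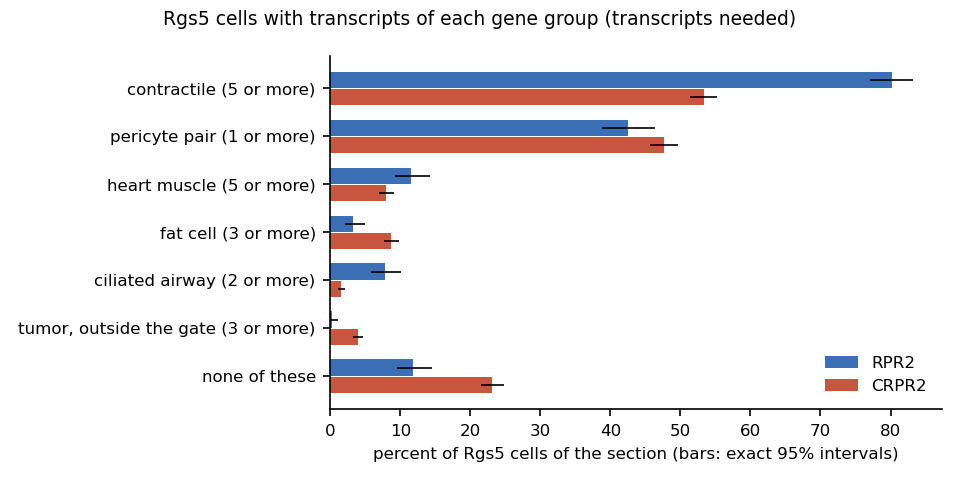
Percent of Rgs5 cells of RPR2 (blue, 668 cells) and CRPR2 (red, 2566 cells) with at least the number of transcripts given in parentheses from each gene group, with exact 95% intervals as error bars; a cell can count in several groups. Contractile transcripts were found in 80.2% and 53.3% of members, the pericyte pair in 42.5% and 47.7%, and fat cell transcripts in 3.29% and 8.69%.

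Transcripts of the contractile genes and of the pair *Higd1b* and *Ndufa4l2*, both lists set after their values were seen, were counted per member. At least 5 transcripts of the 7 contractile genes were found in 536 RPR2 members (80.2%, 77.0 to 83.2) and 1368 CRPR2 members (53.3%, 51.4 to 55.3). At least 1 contractile transcript, after thinning to 50, was found in 94.9% and 84.8% of members, 78.1% and 77.6% of T cells and 87.8% and 82.0% of fibroblast gate cells, so the background of these genes was high. At least 1 transcript of *Higd1b* or *Ndufa4l2* was found in 284 RPR2 members (42.5%, 38.7 to 46.4) and 1223 CRPR2 members (47.7%, 45.7 to 49.6). The background of this pair was high, since 17.0% and 15.6% of T cells, at median depths of 79 and 85 transcripts, and 21.4% and 16.9% of other cells held it too. Thinned to 50 transcripts, 27.7% and 30.4% of members held the pair, against 11.3% and 8.92% of T cells and 12.4% and 8.76% of other cells. Members with the pair were deeper than members in all, at a median of 113.5 and 109 transcripts. Both groups were found in 253 RPR2 members, 47.2% of those with contractile and 89.1% of those with pair transcripts, and in 803 CRPR2 members, 58.7% and 65.7%. Members with none of the 6 gene groups were 79 (11.8%) and 594 (23.1%), and were shallower, at a median of 69 and 76.5 transcripts.

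Members were divided by *Acta2* in the same way. Members with 2 or more *Acta2* transcripts were 496 in RPR2 and 1367 in CRPR2, and members without any were 86 and 595. Of 307 genes counted, 9 were at least 2-fold higher with *Acta2* in both sections (2.93%) and 29 at least 2-fold lower (9.45%). *Cnn1*, calponin, was at 13269 CPM with *Acta2* and 282 CPM without it in RPR2, and at 2533 and 151 CPM in CRPR2. *Myh11* was at 26751 and 5491 CPM in RPR2, and at 8990 and 1777 CPM in CRPR2. *Tagln*, *Mustn1*, *Myl9*, *Thbs1*, *Ccn2*, *Ccn1* and *Cd3d* were the others on the higher side, of which *Ccn1* and *Ccn2* are YAP targets and *Thbs1* encodes thrombospondin. *Gabrp*, a subunit of the GABA-A receptor found in epithelium, was lower with *Acta2*, at 443 and 1690 CPM in RPR2 and 1017 and 3668 CPM in CRPR2. Members without *Acta2* were shallower, at a median of 74.5 and 80 transcripts against 112.5 and 120.

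The share of members with *Acta2* has a high background. Thinned to 50 transcripts, 75.1% of RPR2 members and 59.5% of CRPR2 members held *Acta2*, against 60.5% and 67.2% of T cells and 30.9% and 37.6% of endothelial gate cells. In CRPR2 the share was above that of endothelial gate cells and below that of T cells, so no expression was read from this share. *Myh11* was less widespread, in 49.1% of RPR2 members and 18.9% of CRPR2 members against 7.20% and 4.06% of T cells. *Higd1b* was found in 10.0% and 11.6% of members, against 0.931% and 0.484% of T cells and 3.62% and 2.51% of endothelial gate cells. Median depths of T cells and members differed (79 and 85 against 103 and 103 transcripts) before thinning.

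Members were also binned by *Rgs5* count, which the rule used, so the bins are given as values. From members with 2 *Rgs5* transcripts to those with 10 or more, the summed level of *Higd1b* and *Ndufa4l2* went from 6322 to 16923 CPM in RPR2 and from 5723 to 14275 CPM in CRPR2. *Mgll*, the third pericyte gene outside the rule, went from 4922 to 2692 CPM in RPR2, while in CRPR2 it stood at 5603 CPM at 2, 7246 CPM at 6 to 9 and 4884 CPM at 10 or more. *Aspn*, of the smooth muscle list, went from 4558 to 14525 CPM in CRPR2. In RPR2 it stood at 8595 CPM at 2 transcripts, 10025 CPM at 3, 12506 CPM at 4 to 5, 8332 CPM at 6 to 9 and 20000 CPM at 10 or more. *Colec11* went from 350 to 1538 CPM and from 303 to 2692 CPM. *Cnn1* took the opposite course, from 13468 to 769 CPM in RPR2 and from 2379 to 313 CPM in CRPR2. Tumor transcripts (7 neuroendocrine genes outside the rule, such as *Scg2* and *Insm1*) were at 4071 CPM at 2 *Rgs5* transcripts and 1252 CPM at 10 or more in CRPR2, and at 399.8 and 385 CPM in RPR2. Depth was greater in the higher bins too, with medians of 98 and 155 transcripts in RPR2 and 97 and 145 in CRPR2, and the last bin held 17 and 111 cells.

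**Figure D3:**
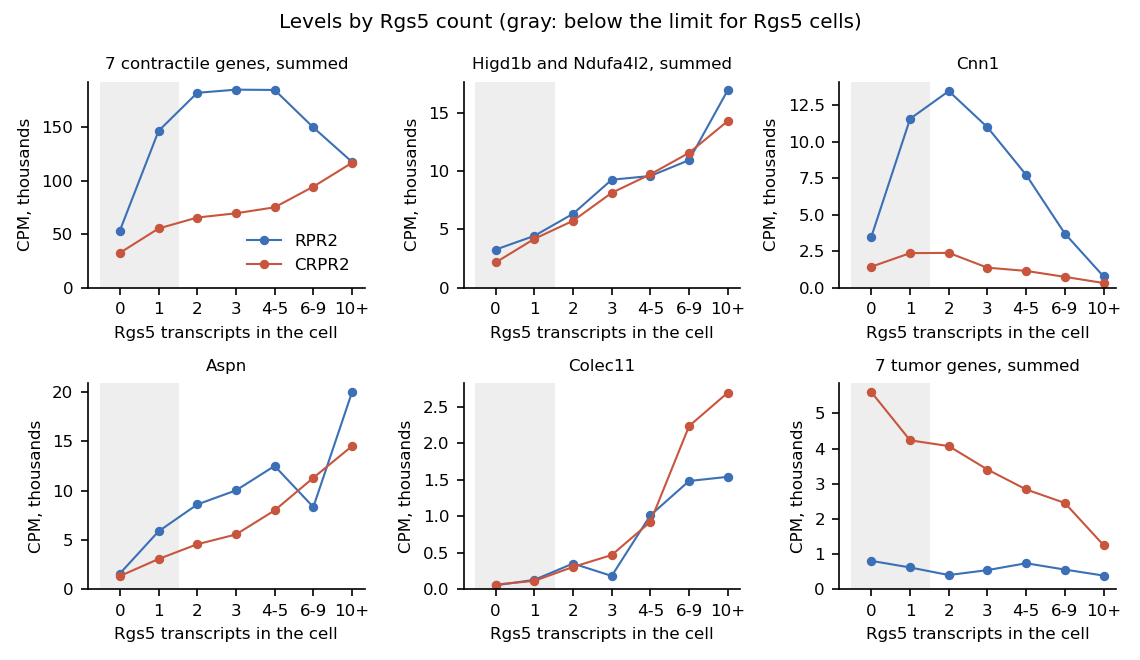
Level in CPM (axis in units of 1000 CPM) against the number of *Rgs5* transcripts in the cell for 3 summed gene groups and 3 genes, in RPR2 (blue) and CRPR2 (red) cells within the neuroendocrine and endothelial limits; the gray area marks counts of 0 and 1, outside the rule. *Higd1b* and *Ndufa4l2* together stood higher at higher counts in both sections (16923 and 14275 CPM at 10 or more), while the contractile sums of RPR2 and CRPR2 lay apart at 2 transcripts (182425 and 65612 CPM) and side by side at 10 or more (117692 and 116892 CPM).

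Members with 6 or more and with exactly 2 *Rgs5* transcripts were set side by side, also as values. Those with 6 or more were 58 in RPR2 and 413 in CRPR2, at median depths of 129.5 and 122 transcripts. Those with 2 were 371 and 1139, at 98 and 97 transcripts. In the 58 RPR2 cells, 1 transcript was 125 CPM, above the minimum of 100 CPM, so low levels there rest on few transcripts. Of 307 genes, 4 were at least 2-fold higher in both sections (1.3%) and 54 at least 2-fold lower (17.6%). The 4 were *Colec11*, *Gamt*, *Higd1b* and *Cyp4b1*. *Higd1b* stood at 4999 and 1624 CPM in RPR2 and at 4347 and 1628 CPM in CRPR2. Among the lower genes were *Ccdc153*, a ciliary protein, at 250 and 2274 CPM in RPR2 and at 38.0 and 471 CPM in CRPR2, and *Sftpd*, surfactant protein D, at 1125 and 5897 CPM in RPR2 and at 1443 and 8900 CPM in CRPR2.

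The second question was how Rgs5 cells differ between lungs with and without *Cracd*. Of 337 genes with at least 100 CPM in members of a section, 138 were at least 1.5-fold higher in CRPR2 (40.9%) and 59 at least 1.5-fold lower (17.5%), with a median log2 ratio of 0.34 over all 337. Of the smooth muscle list, 7 of 9 genes were lower in CRPR2, with a median log2 ratio of −1.27. Of the 3 pericyte genes outside the rule, none was past 1.5-fold either way, with a median of 0.25. Other lists differed in the opposite direction: 8 of 8 proliferation genes, 7 of 7 neuroendocrine genes outside the rule and 6 of 7 T cell genes were higher in CRPR2. Some of these genes, among them *Cenpf*, *Ube2c* and *Scg2*, reached 100 CPM in CRPR2 members alone. Their direction follows in part from that minimum, so these counts are given as description only. None of 8 ribosomal and signaling genes kept as a reference was past 1.5-fold, with a median of 0.25.

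*Cnn1* was the contractile gene with the largest ratio. It stood at 10959 CPM in RPR2 members and 1623 CPM in CRPR2 members, a log2 ratio of −2.76 (−2.92 to −2.59). *Myh11* followed at −1.85 (−1.95 to −1.76), then *Tagln* at −1.47 (−1.55 to −1.40), *Des* at −1.46 (−1.55 to −1.38) and *Myl9* at −1.36 (−1.46 to −1.26). *Acta2* and *Mylk*, the kinase of the myosin light chain, were lower by less, at −0.86 (−0.92 to −0.80) and −0.85 (−0.93 to −0.77). Summed over lists that were set after the values were seen, the 7 contractile genes stood at 178914 and 74675 CPM, a log2 ratio of −1.26, and *Higd1b* and *Ndufa4l2*, the 2 pericyte genes that were higher than in other cells, at 8126 and 8155 CPM, a log2 ratio of 0.01. *Mustn1*, a small nuclear protein of muscle and skeleton, was at 7676 and 2351 CPM. Counting error is narrow here, and the spread between mice is not known.

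The other cells, pooled, had lower contractile levels in CRPR2 as well, at 38967 and 16647 CPM for the 7 genes summed. Tumor cells, with 5422 and 6140 CPM, were 9.87% of cells in RPR2 and 53.5% in CRPR2. Within single gates the sums lay closer together, at 28122 and 26727 CPM in the endothelial gate, 36304 and 35496.5 CPM in T cells and 109874 and 90785 CPM in the fibroblast gate. Cells rich in *Myh11*, *Tagln* and *Cnn1* (6 or more transcripts in all) made up 35.8% (32.1 to 39.5) of RPR2 members and 9.28% (8.18 to 10.5) of CRPR2 members, 4.24% and 1.22% of all cells, and 4.75% and 3.01% of cells within the neuroendocrine limit. A change in the mix of members and a lower level per cell cannot be told apart.

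The contractile sums of the sections are given by *Rgs5* count as values, since the rule used that count. The contractile sum was 182425 CPM in RPR2 and 65612 CPM in CRPR2 at 2 *Rgs5* transcripts, and 117692 and 116892 CPM at 10 or more. With 6 or more *Rgs5* transcripts the log2 ratio was −0.46, with 4 or more −0.91, and without an endothelial transcript −1.67. Transcripts of ciliated airway cells differed along the same counts. The 7 ciliated genes, a list set after the values were seen, stood at 10694 CPM in RPR2 members with 2 *Rgs5* transcripts and at 1923 CPM in those with 10 or more, and without members that held any of these transcripts the contractile ratio was −1.20. Members with 2 or more ciliated transcripts were 52 in RPR2 (7.78%) and 39 in CRPR2 (1.52%). Of these, 82.7% and 43.6% also held 5 or more contractile transcripts, against 80.2% and 53.3% of all members.

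Genes of dividing cells were higher in CRPR2 members. *Mki67*, a nuclear protein of cycling cells, stood at 476 CPM in RPR2 members and 2506 CPM in CRPR2 members, a log2 ratio of 2.39 (1.91 to 2.92). *Top2a*, the DNA topoisomerase of replicating cells, stood at 251 and 1878 CPM. Thinned to 50 transcripts, 2.51% of RPR2 members (1.44 to 4.05) and 13.99% of CRPR2 members (12.6 to 15.5) held *Mki67* or *Top2a*, and 5.09% and 22.2% did so unthinned. The shares in comparison cells were higher in CRPR2 as well, at 1.14% and 8.34% of endothelial gate cells, 8.08% and 22.9% of T cells and 42.4% and 50.3% of tumor cells.

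Tumor transcripts were higher in CRPR2 members along with the cycling genes. The 7 tumor genes, a list set after the values were seen, summed to 489.7 CPM in RPR2 members and 3347 CPM in CRPR2 members. In CRPR2 members with a neuroendocrine sum of 1, they summed to 10597 CPM and *Mki67* stood at 4851 CPM, against 2025 and 2078 CPM in those with a sum of 0. At least 3 tumor transcripts were found in 2 RPR2 members (0.299%) and 100 CRPR2 members (3.897%), and in those 100 cells *Mki67* stood at 6050.4 CPM. The part of tumor transcripts in the share of cycling members was not tested.

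Of the 10 genes with the largest ratios each way, those lower in CRPR2 members included the ciliary genes *Fam183b* (860 and 100 CPM), *Tmem212* (1284 and 172 CPM) and *Ccdc153* (1575 and 224 CPM), and *Foxj1*, the regulator of motile cilia (1019 and 290 CPM), and also the contractile genes *Cnn1* and *Myh11*. Those higher included *Retn* of the fat cell list (384 and 3130 CPM), *Scg2* of the tumor list (79.4 and 782 CPM) and, of the proliferation list, *Cenpf* (79.4 and 689 CPM) and *Ube2c* (52.9 and 551 CPM). *Apoc2* and *Gpa33* had no transcript in RPR2 members, where 3 transcripts are 39.7 CPM, and stood at 145 and 117 CPM in CRPR2 members, at least 3.65-fold and 2.95-fold higher than that limit. The ciliary genes were lower in the other cells of CRPR2 as well, with log2 ratios of −2.29, −2.04, −2.26 and −1.37 in the same order.

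**Figure D4:**
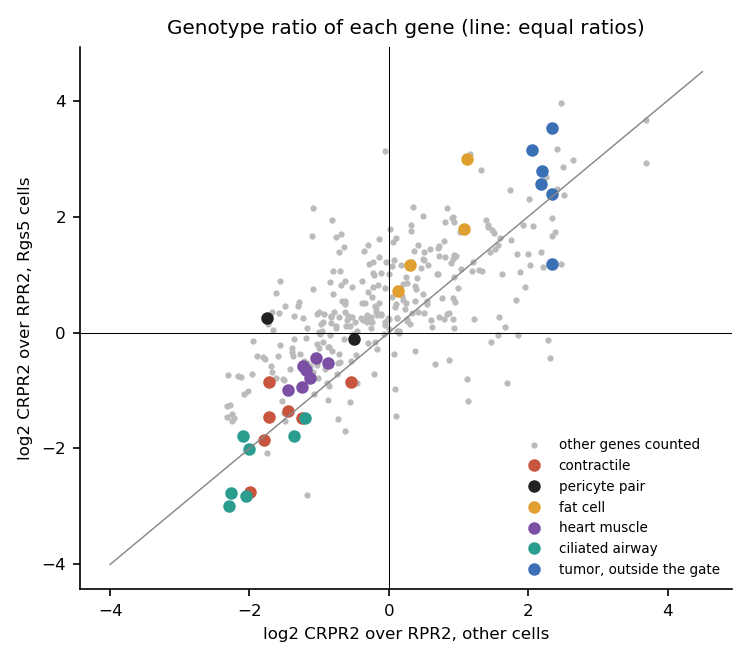
Log2 ratio of CRPR2 over RPR2 in Rgs5 cells (vertical axis) against the same ratio in all other cells (horizontal axis) for 337 genes with at least 100 CPM in Rgs5 cells of a section (10 CPM added); the oblique line marks equal ratios and colors mark gene groups. Contractile genes (red) lay below 0 on both axes, *Higd1b* and *Ndufa4l2* (black) lay near 0 for Rgs5 cells (0.25 and −0.10) and lower for other cells (−1.75 and −0.49), and fat cell genes (orange) lay above the line.

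The genes deleted in the tumors were measured in part. *Rb1* stood at 2726 CPM in RPR2 members and 4629 CPM in CRPR2 members, against 4193 and 8319 CPM in the other cells, and *Trp53* at 2210 and 2671 CPM; *Rbl2* and *Cracd* were not among the 479 genes. Probes outside the deleted exons would still be read, so these levels do not check the labels. The matrix genes *Bgn*, biglycan, and *Col1a1*, a collagen chain, were abundant in members of both sections, at 35537 and 40243 CPM and at 16518 and 26977 CPM. *Timp3*, an inhibitor of matrix proteases, stood at 41890 and 26077 CPM. *Pdgfb*, the endothelial ligand that recruits pericytes, stood at 781 and 1644 CPM in members, below the endothelial gate (4247 and 4780 CPM).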

How the data were processed

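Xenium In Situ transcripts were measured in 1 section of each genotype, with 379 panel genes and 100 custom genes. The authors segmented cells by expansion from nuclei and deposited a matrix of counts of transcripts per cell and feature, with 479 genes and 62 control features per section; the genome build is not given in the sources used here. Neither clusters nor positions were used. The sections held 16313950 (RPR2) and 37348565 (CRPR2) gene transcripts. Cells with under 20 were left out (1903 and 2236), and doublets were not called.

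Rgs5 cells were taken by their rule, summed per section and scaled to CPM in Python 3.11.15 with numpy 2.4.6, scipy 1.17.1 and pandas 2.3.3. With 1 section per genotype there was no test, and a fixed fold was used (2-fold in both sections over other cells, 1.5-fold between genotypes, 10 CPM added, 100 CPM minimum). Intervals are exact (Clopper-Pearson for shares, binomial for ratios, Poisson for levels) at 95% and cover counting error only. Shares of cells are the mean over all ways of thinning each cell to 50 transcripts. The steps were checked on simulated data. Genes were named from the mural, NOTCH, YAP, proliferation and hypoxia lists, the 15 highest over other cells, the 10 with the largest ratio each way between genotypes, the 10 most abundant and the 5 each way in the *Acta2* and *Mgll* splits, not all of which are named; others were chosen after their values were seen. The members and lists were chosen with earlier results of these data known. Alternatives changed the limits on cells, the thinning, the minimum level, the amount added and the scaling. Some results are not reported here.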

Additional observations from a re-analysis of the deposited data

Results flagged for a closer look

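For 6 genes, the ratio of Rgs5 cells to other cells pointed in opposite directions in the sections, past 2-fold in each. With 1 section per genotype the difference was not tested. The makeup of the other cells differed as well. The endothelial gate held 36.0% of cells in RPR2 and 9.14% in CRPR2, and tumor cells held 9.87% and 53.5%. How far this entered the ratios was not tested. *Aif1l* was higher in Rgs5 cells of RPR2 (log2 1.27) and lower in those of CRPR2 (−1.30). *Cd36*, a fatty acid receptor of capillary endothelium and fat cells, was lower in RPR2 (−1.02) and higher in CRPR2 (1.00). The same direction was found for *Cxcr2* (−1.67 and 1.56), *Csf3r* (−1.22 and 1.52) and *Ifitm6* (−1.35 and 1.41), which are genes of neutrophils, and for *Mlana* (−1.25 and 1.14). *Ifitm6* and *Mlana* were near the limit of detection in RPR2 members, at 39.7 CPM each, which is 3 transcripts.

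Control features that match no gene were read in Rgs5 cells. Negative control codewords gave 11 transcripts in RPR2 and 26 in CRPR2, and negative control probes gave 10 transcripts in CRPR2. Per feature this was 3.55 CPM and 2.19 CPM for codewords and 1.72 CPM for probes, below the minimum of 100 CPM used for genes.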

How the results depend on the processing

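No paired analysis was possible because each genotype had 1 section. The share of Rgs5 cells was higher in CRPR2 under the 10 alternatives tried, but its log2 ratio of 0.79 became 0.39 with 1 or more *Rgs5* transcripts, 1.11 with 3 or more, 0.56 with a neuroendocrine sum of 0 and 1.93 with cells within the neuroendocrine limit as the denominator (added after seeing the data). Genes at least 2-fold lower than in other cells numbered 88, and 50 with 1 or more *Rgs5* transcripts. Genes at least 2-fold higher numbered 63, and 45 to 64 over 15 alternatives. The 45 were found when cells with a neuroendocrine sum of 2 or more were left out of the other cells. The count higher in CRPR2 than RPR2 lay between 120 and 185 and the count lower between 48 and 84, and the log2 ratio of cycling shares, 2.48, lay between 1.88 and 3.14.

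The alternatives for the contractile genes and for *Higd1b* and *Ndufa4l2* were chosen after seeing the data as well. The contractile log2 ratio of −1.26 became −1.20 without members with a ciliated transcript, −1.16 without those with a tumor transcript, −0.91 and −0.46 with 4 or more and 6 or more *Rgs5* transcripts, and −1.67 without an endothelial transcript. The ratio of *Higd1b* and *Ndufa4l2*, 0.01, had no settled sign: 0.14 without fat cell or heart muscle transcripts, 0.21 without an endothelial transcript, −0.10 without ciliated transcripts, −0.018 without tumor transcripts and −0.057 with 6 or more *Rgs5* transcripts. Under the alternatives planned at the start, the log2 ratio of the share with *Mgll*, 0.12, became 0.76 where 2 transcripts were needed and reversed to −0.72 with an endothelial sum of 0, −0.12 with a sum of 2 or less and −0.054 without thinning. The causes were not tested. In RPR2, 1 transcript was 13.2 CPM, which limits genes near 100 CPM.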

Other observations

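Cells left out by the endothelial limit differed from members in their levels. Cells with 2 or more *Rgs5* and 5 or more endothelial transcripts numbered 429 in RPR2 and 1628 in CRPR2 and were deeper, at a median of 146 and 144 transcripts. Their *Higd1b* level was 1342 and 1489 CPM, and their *Hey1* level 3416 and 4521 CPM. *Mgll* stood at 7488 and 12704 CPM in these cells, against 6148 and 4100 CPM in members without any endothelial transcript. The contractile sum was 259845 CPM in RPR2 members without an endothelial transcript, 126326 CPM in those with 1 or 2 and 129828 CPM in those with 3 or 4. In CRPR2 the same sums were 81468, 75278 and 63739 CPM. These bins use the genes of the rule and are given as values.

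Immune genes in Rgs5 cells differed between the sections. Of the lists of other cell types, 6 of 7 T cell genes, 5 of 8 macrophage genes and 3 of 4 neutrophil genes were at least 1.5-fold higher in CRPR2 members, against 40.9% of all genes counted. A gene could enter these counts by reaching 100 CPM in CRPR2 members alone. *Ms4a7*, a gene of macrophages, stood at 582 CPM in RPR2 members and 2261 CPM in CRPR2 members, while *Folr2* (582 and 665 CPM) and *F13a1* (2184 and 2358 CPM) stood close together. The part of transcripts from neighboring cells in these levels was not tested.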
